A study of Homo sapiens with 38 samples.

Results

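H/ACA box small nucleolar RNAs were followed across 11 kinds of material released by DiFi cells, an established human colorectal cancer line. They were chosen by their measured counts: snoRNA entries of the deposited table whose first symbol starts with SNORA and whose counts over the 38 library columns sum to 50 or more. This rule gave 101 members of 188 SNORA entries in a table of 22549 features, and the members hold 99.1% of all SNORA counts. The lowest sums inside the limit were 54.1 counts for SNORA80C and 56 for SNORA73 and SNORA60, and the highest sums outside it were 43.5 for the second SNORA62 entry and 39.1 for SNORA70J. Small RNA was sequenced after treatment with AlkB, a demethylase that clears base methylations which block reverse transcription.

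Ultracentrifugation (UC) was used to collect small extracellular vesicles (sEV) and 2 kinds of nanoparticle without a membrane, exomeres and the smaller supermeres. The sEV were pelleted at 167000 g for 4 h, exomeres at 167000 g for 16 h and supermeres at 367000 g for 16 h, after a 0.22 µm filter. The cells grew either in flat culture (2D, pools of 1360 mL of medium after 48 h without serum) or in a hollow-fibre bioreactor (3D, about 400 mL pools in 60 mL aliquots), so medium pool and serum-free time cannot be told apart from culture. Each of these 6 groups has 3 libraries. From the 3D medium, both particles were prepared by size-exclusion chromatography as well (FPLC, 4 libraries each), and a cushion density gradient gave pooled fractions 6_7, 9_10 and 12 (4 libraries each). The labels do not say which gradient pool holds light vesicles, which holds heavy ones and which holds material that is not vesicular. All groups share the same parent line, no group was treated with a drug or carries a genetic change per the labels, and each library represents material pooled from many cells.

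H/ACA snoRNAs fold into a pair of hairpins joined by a hinge that carries the H box (ANANNA) and end in a tail with the trinucleotide ACA close to the 3′ end. Bound to dyskerin, NOP10, NHP2 and GAR1 in the nucleolus, most of them guide the conversion of uridines of ribosomal RNA to pseudouridine, and a few are needed to cut the precursor of ribosomal RNA. Most are spliced out with introns of host genes, many of which encode ribosomal proteins or the non-coding SNHG transcripts. They are nuclear RNAs, so their presence in vesicles and particles outside the cell is of interest as cargo.

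One library was near empty: 3D UC supermere A holds 46 counts and no snoRNA count, and it enters no group value or test below, which leaves 2 libraries in that group. The other 37 libraries hold 81079 to 16991400 counts. The gradient 9_10 libraries are the shallowest (81079 to 490374 counts), so 1 count there is worth far more CPM (counts scaled to a library total of 1000000) than elsewhere. Colorectal epithelial miRNAs (miR-200c-3p, miR-141-3p, miR-192-5p and miR-194-5p, 4 of 4 found) summed to 32583 to 99476 CPM in sEV and the gradient pools 6_7 and 9_10, to 9400 to 68007 CPM in FPLC exomeres, and to 33.6 to 10339 CPM in all other groups. The 9 markers of blood, endothelium, liver, muscle and neurons were all found and summed to 2.08 to 756 CPM. Of these, miR-142-3p held most counts over the series (438 CPM in 2D UC sEV), and miR-124-3p was at 0 in 7 groups. In UC exomeres and supermeres, FPLC supermeres and gradient 12, miR-122-5p or miR-1-3p was the highest. In 2D UC supermeres these were at 34.5 and 16.4 CPM, against 0.913 CPM of miR-142-3p. The part of the 9 markers in the H/ACA values was not tested.

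The sequences of members that lead in several kinds of material are shown first, since the results turn on which of them is present. They were read from the GENCODE v29 transcripts (GRCh38), written 5′ to 3′, with the ANANNA match nearest the middle and the ACA lying 3 bases before the end in capitals. SNORA21 (chr17:38852863-38852994, minus strand, overlapping an exon of a transcript of RPL23, a ribosomal protein gene), SNORA57 (chr11:62665422-62665570, plus strand, overlapping an exon of CSKMT) and SNORA62, also called E2 (chr3:39411054-39411206, plus strand, in the ribosomal protein gene RPSA), lead in sEV, in 2D particles and in gradient 9_10.
SNORA21: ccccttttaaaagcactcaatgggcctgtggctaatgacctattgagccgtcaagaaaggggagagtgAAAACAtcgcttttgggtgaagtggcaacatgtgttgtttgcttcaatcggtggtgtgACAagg
SNORA57: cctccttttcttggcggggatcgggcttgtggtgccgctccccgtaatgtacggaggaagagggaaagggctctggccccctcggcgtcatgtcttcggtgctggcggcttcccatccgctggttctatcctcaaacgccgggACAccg
SNORA62: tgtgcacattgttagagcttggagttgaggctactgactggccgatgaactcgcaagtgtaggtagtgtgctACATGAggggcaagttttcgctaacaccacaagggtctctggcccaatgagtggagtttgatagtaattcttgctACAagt

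SNORA75 (chr2:231455800-231455936, minus strand, in an intron of NCL, the gene of the nucleolar protein nucleolin) and its copy SNORA75B (chr4:17320746-17320882, minus strand, no host gene in the annotation) are shown because they differ between materials while 125 of their 137 bases (91.2%) are the same. SNORA14B (chr1:235127803-235127937, minus strand, in an intron of TOMM20) has the same kind of copy in SNORA14A, with 91.1% identity.
SNORA75: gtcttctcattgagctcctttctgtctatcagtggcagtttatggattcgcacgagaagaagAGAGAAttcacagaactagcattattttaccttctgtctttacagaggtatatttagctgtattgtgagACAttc
SNORA75B: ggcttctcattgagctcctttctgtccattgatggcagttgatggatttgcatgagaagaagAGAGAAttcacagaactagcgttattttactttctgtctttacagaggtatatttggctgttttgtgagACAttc
SNORA14B: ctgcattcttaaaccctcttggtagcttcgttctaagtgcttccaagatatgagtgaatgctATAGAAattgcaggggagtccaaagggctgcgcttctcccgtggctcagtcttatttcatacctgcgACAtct

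The rule used names and counts, not sequence. An ACA at that place was found in 81 of the 100 members with a reference sequence, against 1.39% of 288 C/D box snoRNA transcripts and 1.70% of 2002 other transcripts of 125 to 198 bases. The ANANNA letters, searched on the RNA's own strand, were found in 98 of the 100, but also in 82.3% of the C/D box transcripts and 86.8% of the other transcripts. SNORA57 has the ACA and no ANANNA match. The members are 115 to 272 bases long (median 134) with a GC content of 32.8 to 66.9% (median 49.0%). Of the 101, 50 lie in an intron, 39 overlap an exon of a host transcript and 12 have no host in the annotation. The hosts include 12 ribosomal protein genes with 14 members, and 12 members lie in SNHG genes. Reads that match several entries are divided among them in the table, and 60 members hold such fractional counts. The SNORA70 copies, SNORA7A and SNORA7B (98.6% identical) and the overlapping SNORA17B entries 1 and 2 are therefore uncertain as single features.

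H/ACA counts were highest in 3D UC sEV and lowest in supermeres of 3D medium. In 2D culture the summed H/ACA level was 479, 537 and 693 CPM in sEV, 316, 282 and 221 CPM in exomeres and 764, 702 and 220 CPM in supermeres (replicates A, B and C). In 3D culture it was 3041, 2613 and 2198 CPM in sEV, 135, 85.2 and 144 CPM in exomeres, and 43.6 and 14.0 CPM in supermeres B and C. The exomere ranges lie below the sEV ranges in both cultures, while the 2D supermere and 2D sEV ranges overlap. FPLC exomeres held 1213, 1506, 1187 and 2150.3 CPM and FPLC supermeres 15.1, 56.2, 45.7 and 187 CPM (A to D). The gradient pools held 147, 202, 167 and 145 CPM in 6_7, 150.3, 445, 887 and 1369.7 CPM in 9_10, and 528, 612, 1805 and 1673 CPM in 12. All gradient 12 libraries lie above all 6_7 libraries, and 9_10 overlaps with both 6_7 and 12. CPM is a share of each library, so fewer particles and less RNA in each particle cannot be told apart from more of other RNA.

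**Figure D1:**
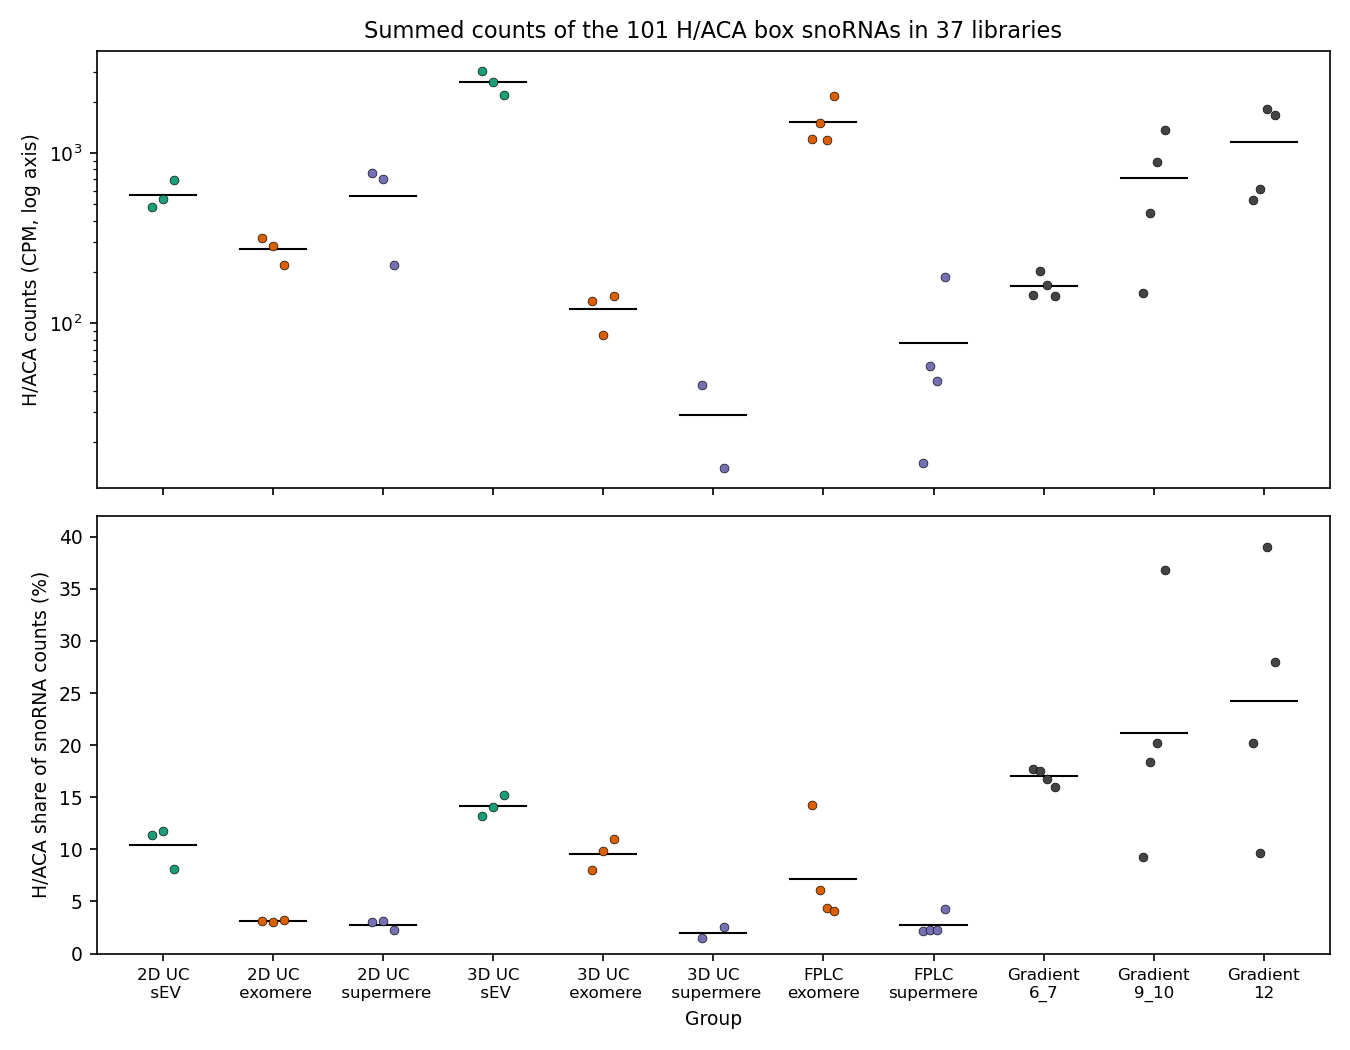
Each point is a library and each bar the mean of a group, for the summed CPM of the 101 members (upper panel, log axis) and as a percent of all snoRNA counts (lower panel). The 3 libraries of 3D UC sEV sit at 2198 to 3041 CPM, while gradient 12 holds the library with the highest share, 39.0%.

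As a share of snoRNA counts the order of the groups was different. The H/ACA share was 10.4% ± 2.00 (SD, n = 3) in 2D UC sEV, 3.12% ± 0.056 (SD, n = 3) in 2D UC exomeres and 2.77% ± 0.48 (SD, n = 3) in 2D UC supermeres. In 3D UC it was 14.2% ± 1.03 (SD, n = 3) in sEV, 9.60% ± 1.5 (SD, n = 3) in exomeres and 2.01% ± 0.77 (SD, n = 2) in supermeres. The sEV libraries lie above those of exomeres and supermeres in both cultures. FPLC exomeres held 14.2, 6.11, 4.35 and 4.05% (A to D), and FPLC supermeres 2.14, 2.24, 2.27 and 4.27%. Gradient 6_7 was even, at 16.0 to 17.7%, whereas 9_10 ran from 9.26 to 36.8% and 12 from 9.65 to 39.0%. The spread in 9_10 was wider than counting error: the 95% Wilson intervals were 7.47 to 11.5% for 9_10 A, the lowest of its group, and 33.2 to 40.4% for 9_10 D, the highest. No molecular identifiers were counted, so several reads may be copies of 1 molecule and the intervals cover counting error alone. These sums carry no test, since the members were selected on their counts.

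The make-up of the H/ACA counts changed with the material. SNORA21, a pseudouridine guide that has been described as raised in colorectal tumours, was the top member in all 6 sEV libraries, with 21.4 to 27.4% of H/ACA counts in 2D and 25.7 to 43.7% in 3D. SNORA57 held 51.3 to 59.2% in 2D UC exomeres and 70.0 to 88.1% in 2D UC supermeres, against 4.93 to 6.15% in 2D UC sEV and at most 13.1% in any other library. SNORA74A was the top member in all 4 FPLC supermere libraries, with 50.9 to 72.2%. SNORA62 was the top member in gradient 9_10 A, B and C with 27.1, 36.0 and 43.1%, and SNORA75 in 9_10 D with 30.3%. SNORA75 also led all 3 of the 3D UC exomere libraries with 10.4 to 20.8%. Per length the order of mean levels over groups was SNORA21 (107 CPM per 100 bases), SNORA75 (56.6), SNORA57 (43.1) and SNORA71A (35.6).

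**Figure D2:**
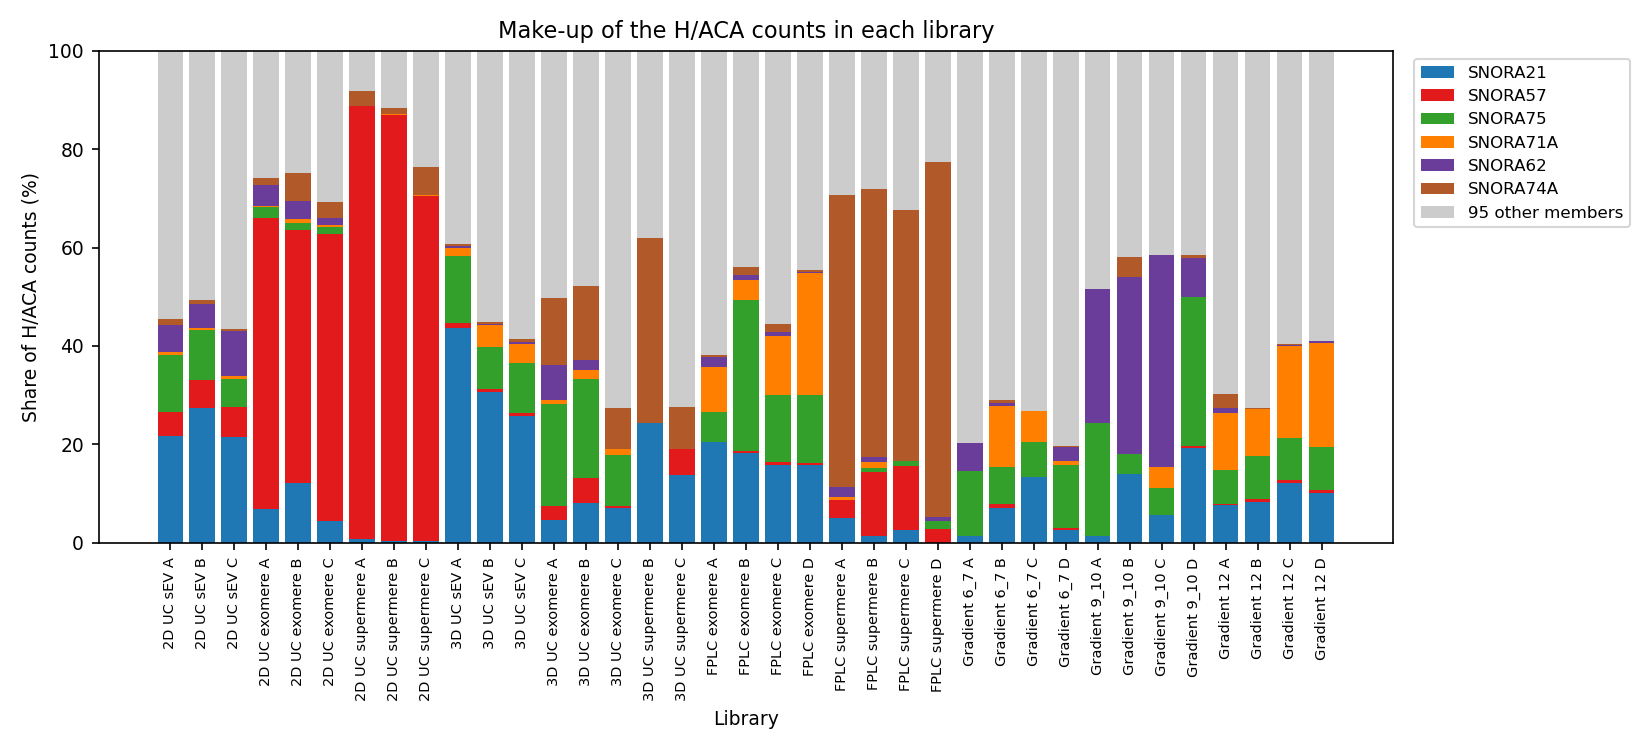
Each bar is a library and shows the percent of its H/ACA counts held by 6 members and by the 95 others together. SNORA57 fills 51.3 to 88.1% of the bars of 2D UC exomeres and supermeres, and SNORA74A 50.9 to 72.2% of those of FPLC supermeres.

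SNORA57 stood apart from the other members in 2D culture. It was at 23.6, 30.2 and 42.7 CPM in 2D UC sEV, 187, 145 and 129 CPM in 2D UC exomeres and 673, 608 and 154 CPM in 2D UC supermeres. Neither particle range overlaps with that of sEV, and supermere C lies inside the exomere range. Supermeres against exomeres gave 1.64 on the log2 scale and did not pass. Against sEV, SNORA57 rose in supermeres by 3.89 on the log2 scale (SE 1.13, edgeR adjusted p = 0.0125), higher in 3 of 3 libraries. This call was lost with TMM scaling (2.84, edgeR adjusted p = 0.0835), and per snoRNA total the difference was 2.00 (edgeR adjusted p = 0.42). It was also lost without any single library other than supermere C (edgeR adjusted p = 0.0514 to 0.106). In exomeres against sEV the difference was 2.26 (SE 1.05) and did not pass (edgeR adjusted p = 0.247). In 3D culture SNORA57 was low in particles: 27.9, 15.2 and 16.6 CPM in sEV, 3.85, 4.24 and 0.766 CPM in exomeres, and 0 and 0.725 CPM in supermeres B and C. It fell in 3D against 2D exomeres by 5.70 (SE 1.23, edgeR adjusted p = 0.000593) and in 3D against 2D supermeres by 10.1 (SE 1.85, edgeR adjusted p = 2.1e-05). The fitted medians over all features were -4.27 and -5.56 there, or -3.85 and -2.17 with groups at 0 set to 3 counts. Per snoRNA total both SNORA57 values missed the threshold, at -2.77 (edgeR adjusted p = 0.129) and -5.41 (edgeR adjusted p = 0.0518). With TMM its exomere value was -3.04 (edgeR adjusted p = 0.0685). Without SNORA57 the summed H/ACA level was 119 CPM in 2D UC exomeres and 83.6 CPM in 2D UC supermeres, against 537 CPM in 2D UC sEV.

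SNORA21 had the opposite pattern in 2D. It was at 104, 147 and 149 CPM in sEV, 21.5, 34.4 and 9.57 CPM in exomeres and 5.44, 2.35 and 0.945 CPM in supermeres, so the 3 ranges do not overlap. The fall in supermeres was 5.52 on the log2 scale (SE 1.12, edgeR adjusted p = 4.3e-05), while exomeres against sEV gave -2.61 (edgeR adjusted p = 0.114). In 3D UC it was at 1328 CPM in sEV A, 803 in B and 564 in C, and at 1.93 to 10.6 CPM in exomeres and supermeres. Against 3D UC sEV it fell by 6.85 in exomeres (SE 1.18, edgeR adjusted p = 3.3e-06) and fell by 7.18 in supermeres (SE 1.46, edgeR adjusted p = 8.4e-05). The difference of SNORA21 between 3D and 2D sEV was 2.76 and did not pass (edgeR adjusted p = 0.249).

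**Figure D3:**
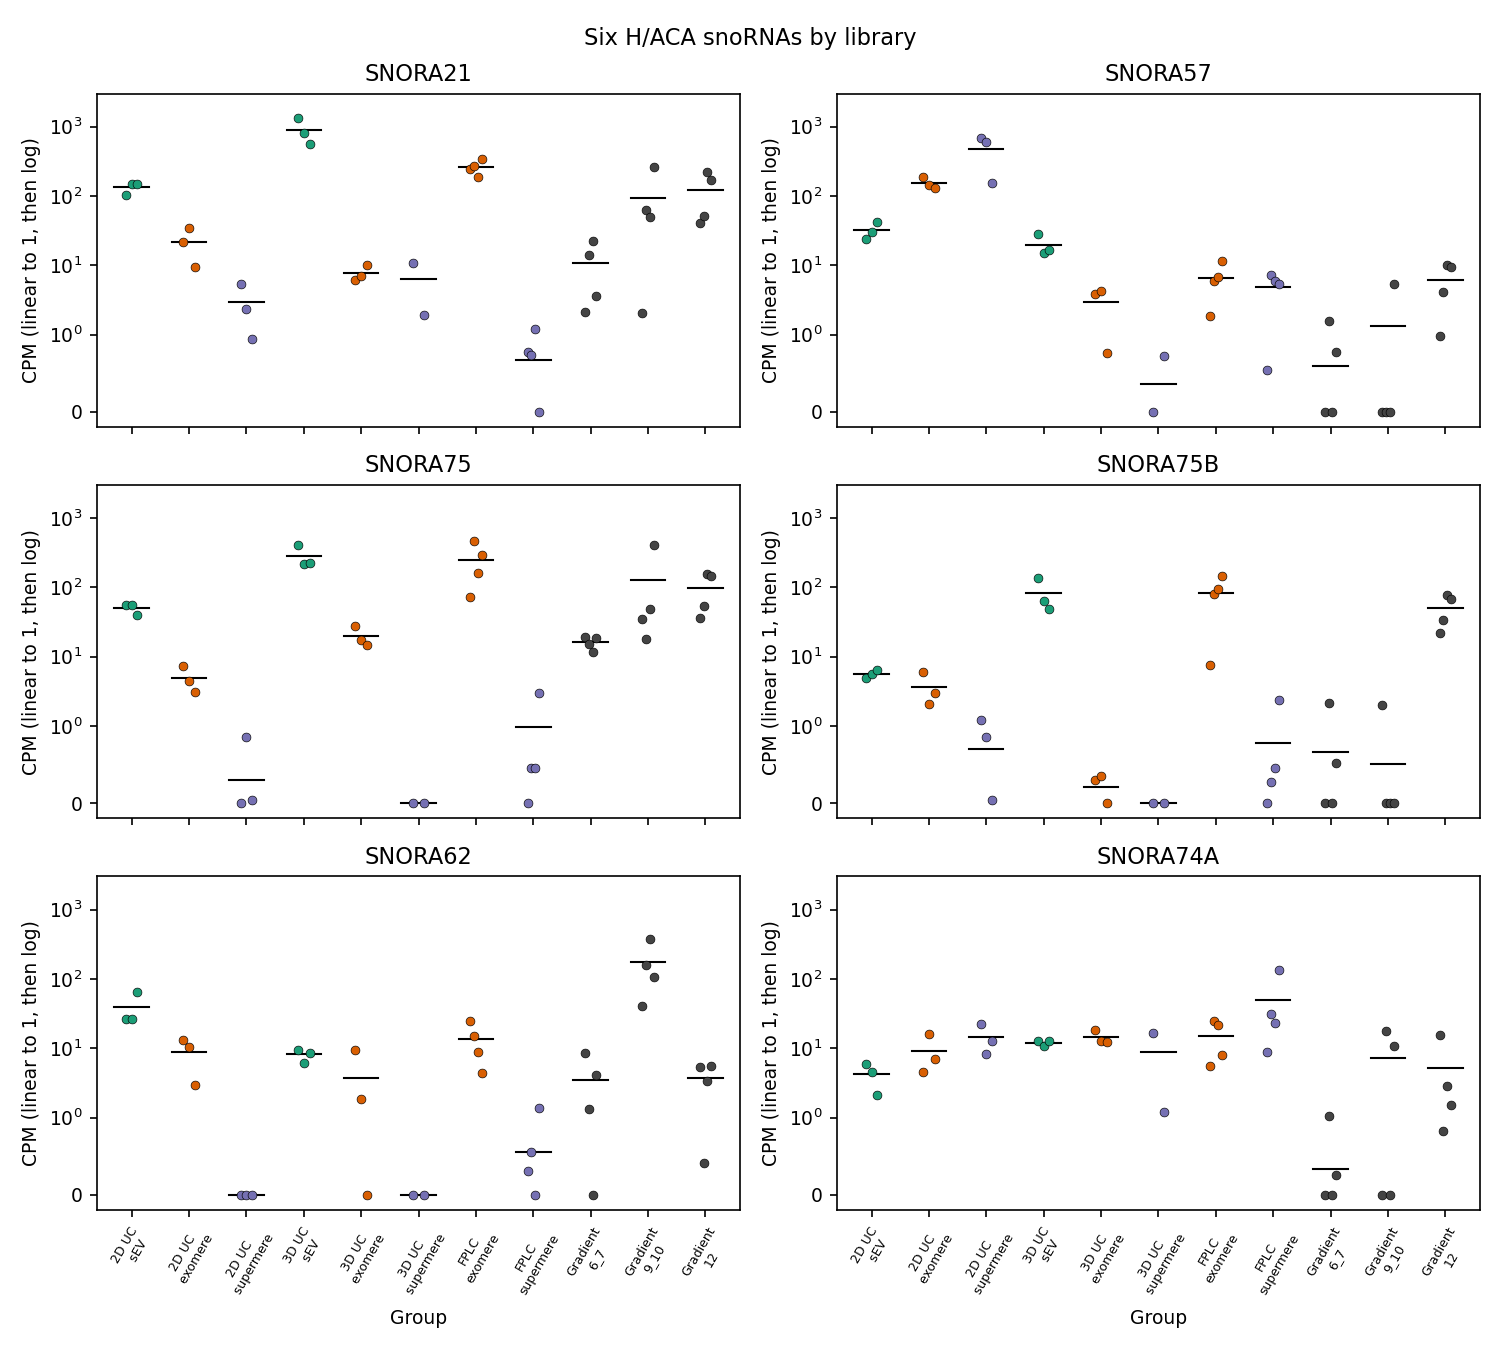
Each point is a library and each bar the mean of a group, for 6 members in CPM on an axis that is linear up to 1 and logarithmic above. SNORA57 is highest in 2D UC supermeres (154 to 673 CPM), SNORA21 in 3D UC sEV (564 to 1328 CPM) and SNORA62 in gradient 9_10 (40.8 to 382 CPM).

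Of the members, 96 passed the filter on low counts and were tested, and SNORA23, SNORA24B, SNORA50A, SNORA56 and SNORA73 did not. A member can pass the filter through the group in which it is high, so the counts of members that passed are a description. Tests are edgeR quasi-likelihood fits over all 8979 features, with library totals as the scale, and features with an adjusted p below 0.05 passed. Comparisons that share the sEV or gradient 6_7 libraries are not independent of each other.

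In 2D culture, members fell in both kinds of particle against sEV. Against 2D UC sEV, 10 members fell in exomeres and none rose, where 3.12% of all features fell. Among them were SNORA75, SNORA5A, SNORA8, SNORA31 and the U17 copy SNORA73B. SNORA75 was at 56.0, 54.9 and 39.7 CPM in sEV and 7.26, 4.5 and 3.07 CPM in exomeres, a fall by 3.35 (SE 1.06, edgeR adjusted p = 0.0413). In supermeres 24 members fell and 1, SNORA57, rose, where 4.52% of features fell and 1.4% rose. SNORA62 was at 26.1, 26.2 and 63.7 CPM in sEV and had no count in any 2D UC supermere library, which makes it at least 274-fold lower against 3 counts over the group (0.141 CPM). SNORA75 fell by 7.54 (SE 1.34, edgeR adjusted p = 1.4e-06). Between supermeres and exomeres only SNORA62 passed, with 13.3, 10.5 and 2.96 CPM in exomeres and 0 in supermeres, at least 63.3-fold lower (edgeR adjusted p = 0.00297), and none passed without supermere A or C. There 0.123% of features fell. The median fitted log2 difference of the members was -3.70 in exomeres and -4.65 in supermeres against sEV, while that of all features was 1.82 and 1.12. With a group at 0 set to 3 counts, the medians were -3.02 and -3.02 for the members above that floor and 1.84 and 1.16 for all such features. Per snoRNA total, 24 members fell in exomeres (5.1% of features passed) and 49 in supermeres (8.36% passed). Leaving out 1 library left 1 to 8 members in exomeres (1 without exomere A, 3 without B or C) and 10 to 20 in supermeres (10 without supermere C, 11 without A). SNORA75 itself missed the threshold in exomeres without any 1 of the 6 libraries (edgeR adjusted p = 0.0617 to 0.182).

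The 3D UC fractions gave the larger counts by library totals. In exomeres 37 members fell against 3D UC sEV and none rose, where 4.87% of features fell. SNORA14B was at 11.6, 116 and 96.4 CPM in sEV and at 0 in all 3 exomere libraries, at least 757-fold lower (edgeR adjusted p = 5.8e-07). SNORA75B was at 136, 64.0 and 48.7 CPM in sEV and 0.296, 0.345 and 0 CPM in exomeres, a fall by 8.56 (SE 1.64, edgeR adjusted p = 3.0e-05). SNORA36A, whose host DKC1 encodes dyskerin, was at 105, 7.11 and 3.11 CPM in sEV and 0 in exomeres, at least 390.0-fold lower (edgeR adjusted p = 8.7e-05), with sEV A far above the other sEV libraries. SNORA75, the close copy of SNORA75B, kept 28.1, 17.2 and 15.0 CPM in exomeres and fell by 3.83 (SE 1.08, edgeR adjusted p = 0.0135). In supermeres 27 members fell and none rose, where 3.98% of features fell. SNORA75, SNORA3A and SNORA71A were at 0 in both supermere libraries, against means of 285, 98.6 and 86.3 CPM in sEV, at least 589.6-, 204- and 179-fold lower. Supermeres against exomeres gave only SNORA75, at least 41.6-fold lower (edgeR adjusted p = 0.00309), where 0.245% of features fell. That call was lost without supermere B (edgeR adjusted p = 0.138) or C (edgeR adjusted p = 0.391).

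These 3D counts depended on the scale. SnoRNAs as a class were at 1291 CPM ± 412 (SD, n = 3) in 3D UC exomeres and 18678 CPM ± 4299.7 (SD, n = 3) in 3D UC sEV. Per snoRNA total, 7 members fell in exomeres and 2 rose (19% of features passed), and 5 fell in supermeres (4.39% passed). SNORA75 then showed no fall in exomeres (0.08, edgeR adjusted p = 1.00), and SNORA74A was one of the 2 that rose (4.11, edgeR adjusted p = 0.0185). The fitted medians of the members were -5.51 in exomeres and -8.25 in supermeres by library totals, against -0.32 and -2.46 over all features. With groups at 0 set to 3 counts the medians were -4.87 and -4.07, against -0.78 and -0.58. Without 1 library the counts ran from 14 (without exomere B; 16 without C) to 28 in exomeres and from 2 (without supermere C; 6 without B) to 21 in supermeres.

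**Figure D4:**
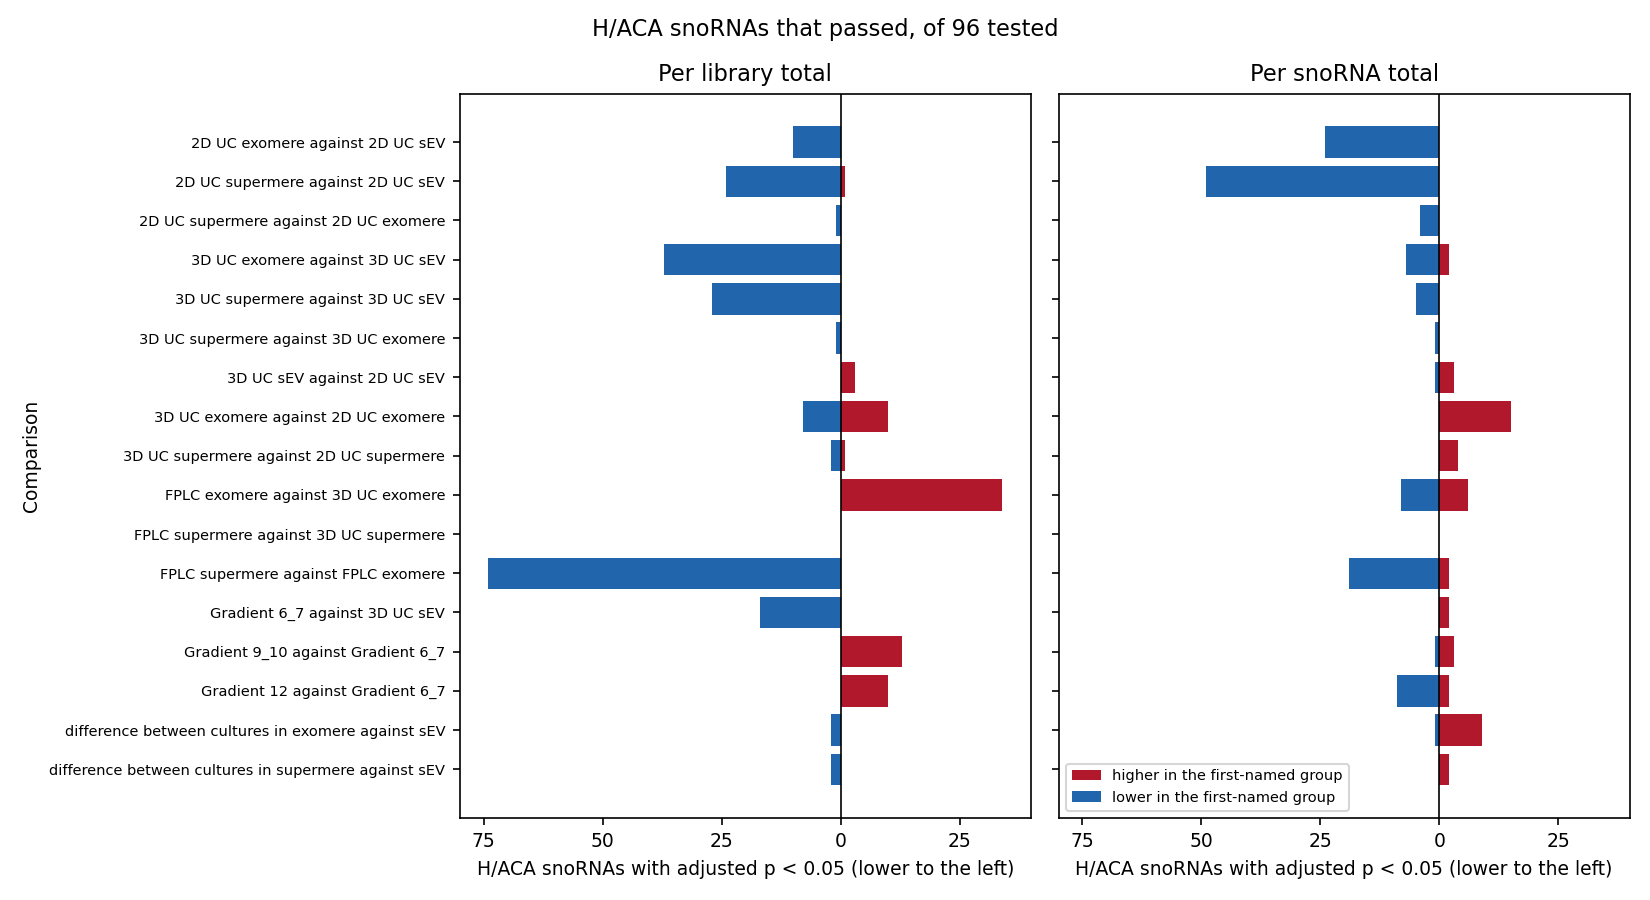
Bars count the members with an edgeR adjusted p below 0.05, of 96 tested, that were higher (right, red) or lower (left, blue) in the first-named group, by library totals (left panel) and by snoRNA totals (right panel). The largest bar by library totals is the 74 members lower in FPLC supermeres than in FPLC exomeres, of which 19 are lower by snoRNA totals.

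Few members passed between cultures in sEV, although most were fitted higher in 3D. The fitted median was 1.77 over the members and -1.68 over all features, with 86 of 96 members fitted higher and 10 lower. With groups at 0 set to 3 counts the medians were 1.77 and -1.19. Per snoRNA total they were 0.04 and -3.18. SNORA71A, SNORA36A and SNORA70I rose in 3D against 2D sEV and none fell, where 0.735% of features rose. SNORA71A, which lies in an intron of SNHG17, was at 2.23, 1.77 and 4.10 CPM in 2D and 54.4, 117 and 87.2 CPM in 3D, a rise by 4.99 (SE 1.20, edgeR adjusted p = 0.00802). SNORA36A rose by 7.12 (SE 1.79, edgeR adjusted p = 0.0126), and this rested on 3D sEV A, without which it was 4.24 (edgeR adjusted p = 0.618). Both calls were also lost without 2D sEV A or B (edgeR adjusted p = 0.166 to 0.292), SNORA71A without 2D sEV C too (edgeR adjusted p = 0.0744), and no member passed without 2D sEV A or without B. With TMM 18 members rose (1.96% of features passed). Per snoRNA total 3 rose and 1 fell (7.01% of features passed), and the one that fell was SNORA62 (-3.84, edgeR adjusted p = 0.0335).

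In exomeres, 10 members rose in 3D against 2D and 8 fell, where 0.913% of features rose and 48.6% fell. The fitted median was -4.27 over all features, and the share of members that fell is below the background. Those that fell included SNORA57, SNORA14B (3.26, 4.04 and 3.19 CPM in 2D and 0 in 3D) and SNORA64 (15.4, 12.7 and 8.35 CPM in 2D and 0, 0.456 and 0.255 CPM in 3D). Those that rose had low levels, led by SNORA46 at 12.3 CPM in 3D against 0.253 CPM in 2D. The split moved with the scale: with TMM 24 rose and 1 fell (5.38% of features passed), and per snoRNA total 15 rose and none fell (4.28% passed). Without 1 library the count by library totals was 3 (without 3D exomere C) to 18. In supermeres SNORA46 rose and SNORA57 and SNORA64 fell, where 0.846% of features rose and 7.47% fell. SNORA46 was at 0 in all 3 of the 2D supermere libraries and at 0 and 5.32 CPM in 3D supermeres B and C, so its ranges overlap and the rise rests on C. SNORA64 was at 16.7, 15.2 and 6.78 CPM in 2D and 0 in 3D, at least 26.7-fold lower (edgeR adjusted p = 0.0395). With TMM 3 rose and 1 fell (2.03% passed), and per snoRNA total 4 rose and none fell (2.42% passed). Without 1 library, 1 or 2 members passed.

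The particle-to-sEV difference was tested between cultures for each member. For exomeres it was more negative in 3D for SNORA14B (-10.3, SE 2.06, edgeR adjusted p = 0.000562) and SNORA75B (-7.95, SE 1.89, edgeR adjusted p = 0.00782), where 0.768% of features passed in that direction. SNORA75B was at 5.71 CPM in sEV and 3.68 CPM in exomeres in 2D, and at 83.1 and 0.214 CPM in 3D. For supermeres it was more negative in 3D for SNORA57 (-9.37, SE 1.95, edgeR adjusted p = 0.000357) and SNORA71A (-9.01, SE 2.53, edgeR adjusted p = 0.0341), where 0.991% passed. SNORA14B was at 0 CPM in 3D UC exomeres, and SNORA71A was at 0 CPM in 3D UC supermeres. The sizes of the SNORA14B and SNORA71A values are therefore set by the fit and carry no bound. Per snoRNA total, 9 members were more positive and 1 (SNORA14B) more negative for exomeres (4.2% passed), 2 were more positive for supermeres (3.89% passed), and SNORA75B, SNORA57 and SNORA71A did not pass (edgeR adjusted p = 0.38 to 0.758). SNORA75B was also lost without 2D sEV A or B (edgeR adjusted p = 0.0687 and 0.0566). SNORA71A was lost without 2D sEV A or B, 2D supermere B or C, 3D sEV B or C, or 3D supermere B or C (edgeR adjusted p = 0.0554 to 0.855).

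Exomeres isolated by FPLC held more H/ACA RNA than those pelleted by UC from the same kind of medium. Against 3D UC exomeres 34 members rose in FPLC exomeres and none fell, where 10.6% of features rose. SNORA71A was at 111, 60.8, 142 and 534 CPM in FPLC exomeres and 1.18, 1.5 and 1.62 CPM in UC exomeres, a rise by 7.17 (SE 1.32, edgeR adjusted p = 1.8e-05). SNORA75B was at 7.70, 79.3, 94.1 and 146 CPM against 0 to 0.345 CPM, a rise by 8.54 (SE 1.62, edgeR adjusted p = 3.8e-05). SNORA14B was at 14.9 to 28.0 CPM against 0, at least 215-fold higher (edgeR adjusted p = 1.2e-05). Neither the SNORA71A nor the SNORA75B ranges overlap. The fitted median was 3.95 over the members and 1.85 over all features, or 3.79 and 2.13 with groups at 0 set to 3 counts. Per snoRNA total 6 rose and 8 fell (21.7% of features passed). SNORA74A was one of the 8 (-4.16, edgeR adjusted p = 0.00387), although its CPM were alike, at 5.58 to 25.0 in FPLC and 12.1 to 18.3 in UC. Without 3D UC exomere A, B or C the count was 20, 9 or 11. Colorectal epithelial miRNAs differed in the same direction, at 9400 to 68007 CPM in FPLC and 1054 to 2335 CPM in UC exomeres, and their part in the difference was not tested. Across the 101 members, the mean profile of FPLC exomeres was most like that of 3D UC sEV (Spearman 0.77, against 0.45 with 3D UC exomeres), as a description over genes measured in the same few libraries.

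By library totals most members were lower in FPLC supermeres than in FPLC exomeres. Against FPLC exomeres 74 members fell and none rose, where 48% of features fell. Among members with at least 20 CPM and no overlap, SNORA71A, SNORA5A and SNORA75 had the largest falls, with log2 differences of -9.88 (SE 1.33, edgeR adjusted p = 2.1e-11), -8.69 (SE 1.55, edgeR adjusted p = 9.2e-07) and -8.59 (SE 1.21, edgeR adjusted p = 1.5e-10). SNORA5A was at 30.4 to 144 CPM in exomeres and 0, 0.730, 0 and 0 CPM in supermeres. SNORA74A did not fall: it was at 5.58, 25.0, 21.3 and 7.87 CPM in FPLC exomeres and 8.95, 30.7, 23.3 and 135 CPM in FPLC supermeres, with ranges that overlap (1.72, SE 1.12, edgeR adjusted p = 0.188). Relative to the other snoRNAs it rose by 4.69 (edgeR adjusted p = 0.00186), and with TMM by 3.79 (edgeR adjusted p = 0.00396). Per snoRNA total 2 members rose, SNORA74A and SNORA57, and 19 fell (5.54% of features passed), and with TMM 1 rose and 27 fell (6.1% passed). Without FPLC supermere A 49 members passed. No member passed between FPLC and 3D UC supermeres in edgeR, where 0.468% of features passed, 5 members had an unadjusted p below 0.05, and DESeq2 called 2. There SNORA21 was at 0 to 1.20 CPM against 10.6 and 1.93 CPM (-2.97, edgeR adjusted p = 0.142).

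In the gradient, pool 6_7 held less H/ACA RNA per library than pelleted sEV but a larger share of it among snoRNAs. Against 3D UC sEV 17 members fell and none rose, where 3.36% of features fell. SNORA21 was at 2.13, 14.3, 22.5 and 3.63 CPM in 6_7, a fall by 6.40 (SE 1.03, edgeR adjusted p = 1.1e-07). SNORA73A fell by 10.8 (SE 2.28, edgeR adjusted p = 0.000227), from 14.6, 50.6 and 59.4 CPM to 0.159 CPM in 6_7 B and 0 in the others. SNORA75B fell by 6.78 (SE 1.36, edgeR adjusted p = 7.7e-05). Per snoRNA total none of these 3 passed (edgeR adjusted p = 0.0517 to 0.289), and 2 members rose and none fell (8.7% of features passed). The fitted median was -3.62 over the members and -2.23 over all features, or -3.27 and -0.78 with groups at 0 set to 3 counts. Without 1 library 5 to 15 members passed, fewest without 6_7 D.

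Pool 9_10 was marked by SNORA62, at 40.8, 160, 382 and 108 CPM against 8.50, 1.32, 0 and 4.14 CPM in 6_7. These ranges do not overlap, and the rise was 5.66 (SE 1.25, edgeR adjusted p = 0.000196). SNORA62 passed with TMM (3.10, edgeR adjusted p = 0.0457) and per snoRNA total (3.79, edgeR adjusted p = 0.0057) as well. The fitted median over all features was 5.32 by library totals, 2.71 with TMM and 4.59 per snoRNA total. Per snoRNA total SNORA62 thus rose less than that fitted median, which also takes in features at 0 in a group. In all 13 members rose and none fell, where 42.2% of features rose, so the share of members that rose is below the background. SNORA75 was at 34.7, 17.8, 49.3 and 415 CPM in 9_10 and SNORA21 at 2.04, 62.3, 49.3 and 264 CPM, with 9_10 D far above the rest for both. The split moved with the scale: with TMM SNORA62 alone rose and 8 fell (8.32% of features passed), and per snoRNA total 3 rose and 1 fell (28.7% passed). Without 9_10 D 5 members passed, and without 6_7 D 8 passed. The fitted median was 0.24 over the members and 5.32 over all features, or 2.09 and 3.80 with groups at 0 set to 3 counts.

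Pool 12 was marked by other members. Against 6_7, 10 members rose and none fell, where 1.11% of features rose. SNORA75B was at 22.0, 34.3, 78.6 and 68.8 CPM in 12 and 0, 2.11, 0 and 0.518 CPM in 6_7, a rise by 6.08 (SE 1.31, edgeR adjusted p = 0.000123). SNORA14B was at 43.4, 73.1, 256 and 141 CPM against 0 to 6.21 CPM, and SNORA71A at 60.5, 57.5, 338 and 353 CPM against 0 to 24.8 CPM, with no overlap for either. The overlapping entries SNORA17B 1 and 2 share their reads, and both had a mean of 53.1 CPM in 12 against 0.812 CPM in 6_7. SNORA8 had its highest level of all groups in pool 12, at 86.2, 85.8, 127 and 142 CPM, and did not pass against 6_7 (edgeR adjusted p = 0.0594). Per snoRNA total 2 rose and 9 fell (11.7% of features passed), with SNORA75B among the 2. Epithelial miRNAs were at 284 to 1199 CPM in pool 12 and 37888 to 82638 CPM in 6_7, and their part was not tested. Without 1 library 6 to 10 members passed, with 6 without pool 12 C or D or without 6_7 A, C or D.

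The members known for cutting pre-ribosomal RNA did not behave as a set. The U17 copies SNORA73A and SNORA73B, needed for the small subunit RNA, were highest in 3D UC sEV at 41.5 and 60.1 CPM and at 0 to 0.48 CPM in all 3 supermere groups. SNORA62 (E2) and SNORA63 (E3) differed: SNORA63 peaked in 3D UC sEV at 46.2 CPM, where SNORA62 was at 8.12 CPM, and SNORA62 peaked in 9_10 at 173 CPM. U19 was carried by SNORA74A, with group means of 0.33 CPM in 6_7 to 49.5 CPM in FPLC supermeres, while its copy SNORA74B stayed at 0 to 1.97 CPM. SNORA74A passed in 2 comparisons by library totals, falling in 6_7 against 3D UC sEV (4.94, edgeR adjusted p = 0.0281) and rising in 9_10 against 6_7 (4.03, edgeR adjusted p = 0.0367), the last with overlapping ranges. Of the 14 members in ribosomal protein genes, 6 fell in 3D UC exomeres against sEV (37 of all 96 members), 3 rose in FPLC against UC exomeres (34 of 96) and 11 fell in FPLC supermeres against FPLC exomeres (74 of 96).

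Among the other guides chosen by name, SNORA61, SNORA31, SNORA53, SNORA7A, SNORA7B and SNORA14A had group means of at most 68.5, 22.3, 9.01, 17.8, 7.42 and 16.7 CPM. SNORA23 and SNORA24 stayed at or below 2.18 and 2.34 CPM in every group, and SNORA24 is in the same low range as the members close to the limit, of which SNORA80C reached 2.34 CPM in pool 12 and SNORA73 reached 2.04 CPM in 9_10. SNORA7A and SNORA7B were similar in 2D supermeres (6.50 and 5.96 CPM) and at 0 in 3D UC supermeres. SNORA51, in the gene of the nucleolar protein NOP56, had counts in every group, with means of 2.02 to 43.8 CPM.

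**Figure D5:**
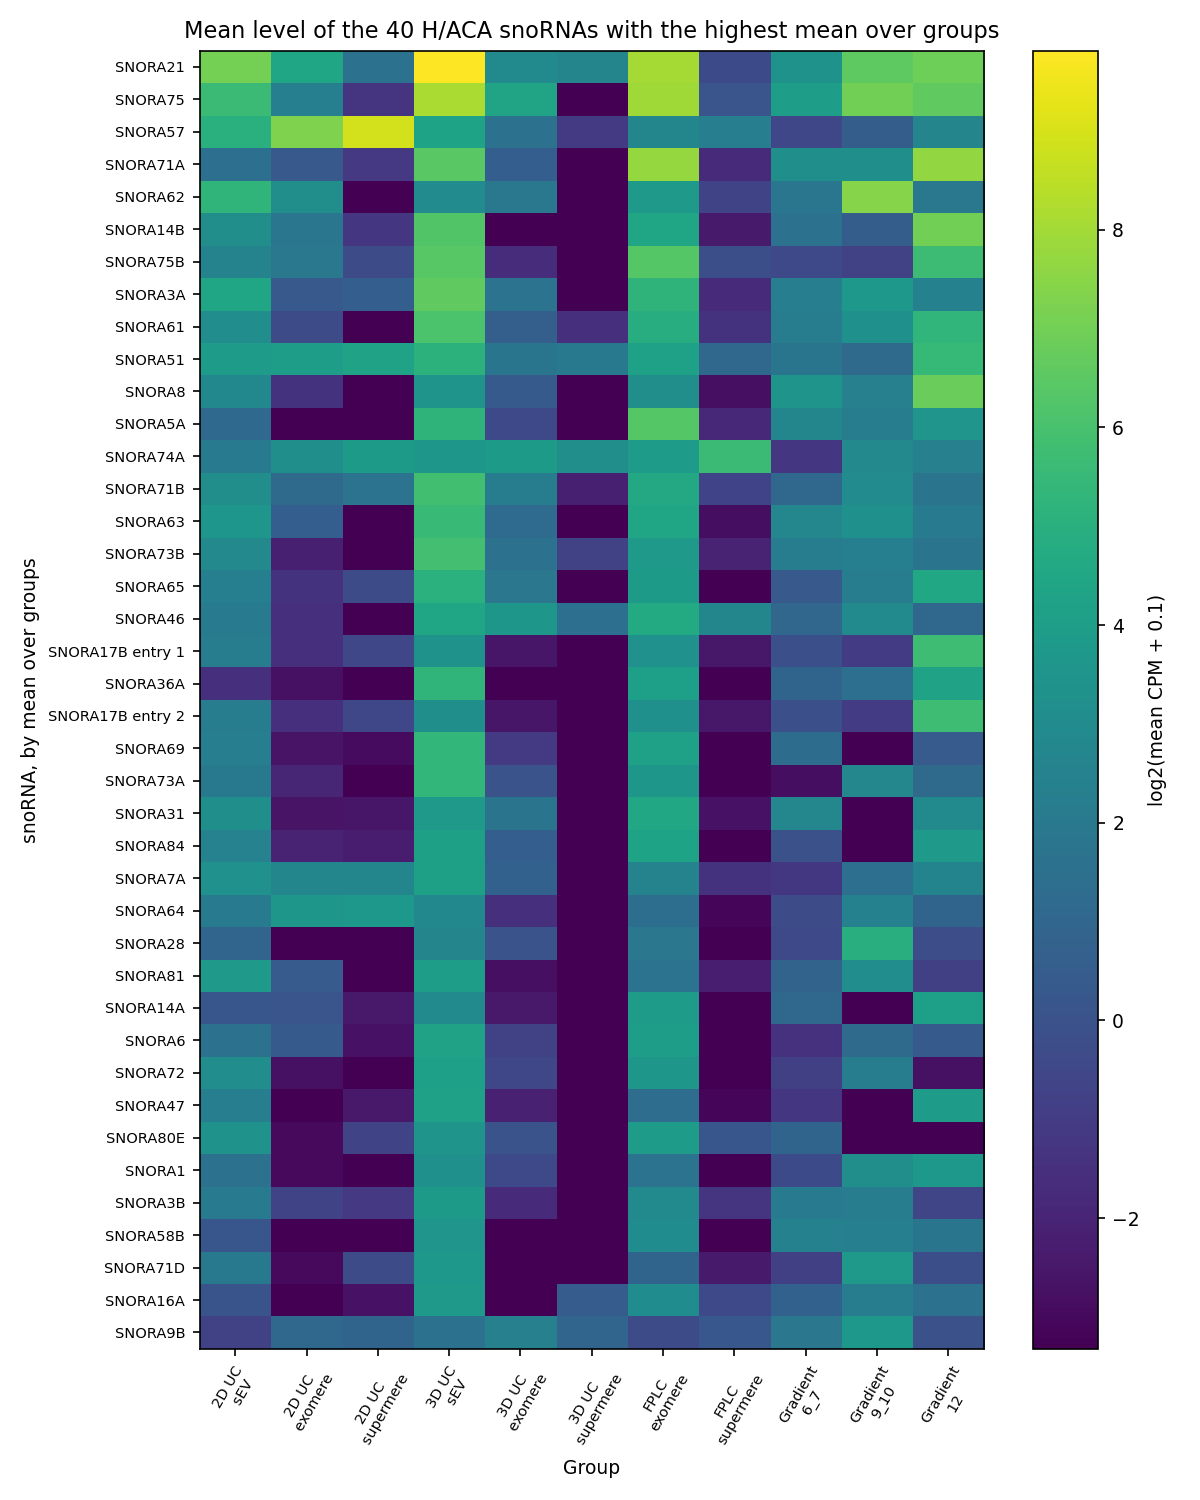
Rows are the 40 members with the highest mean over groups, columns are the 11 groups, and colour gives log2 of the mean CPM plus 0.1. The 3D UC sEV and FPLC exomere columns are filled from top to bottom, SNORA57 is bright in 2D UC exomeres and supermeres, and 86 of the 101 members are at 0 in 3D UC supermeres.

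The number of members with counts, which also depends on depth, differed between groups. All 101 members had counts in 2D and in 3D UC sEV, 99 in FPLC exomeres, 89, 86 and 70 in gradient 12, 6_7 and 9_10, 73 and 70 in 3D and 2D UC exomeres, 58 and 55 in FPLC and 2D UC supermeres and 15 in 3D UC supermeres. The group with the highest mean was 3D UC sEV for 50 members, FPLC exomeres for 15, gradient 9_10 for 13, gradient 12 for 12, 2D UC sEV for 7 and 2D UC supermeres for 2, SNORA57 and SNORA64. In the shallow 9_10 libraries 31 members were at 0 and the median member was at 1.35 CPM, so a few counts can make that group the highest. Of the 54 members that share a SNORA number with another, the summed level was 1151 CPM ± 66.8 (SD, n = 3) in 3D UC sEV and 206 CPM ± 19.9 (SD, n = 3) in 2D UC sEV.

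In 4 members a miRNA entry overlaps by coordinates. SNORA36A holds miR-664b, with 886 counts for the snoRNA and 80 and 61 counts for the 5p and 3p arms. SNORA84 holds miR-3651 (870 against 5 counts) and SNORA81 holds miR-1248 (823 against 96 counts). SNORA2C is the exception, with 240 counts against 604 for miR-1291. The table does not say how reads were split between such a pair, so these levels are uncertain. Nor does it say which bases of a member the reads cover, and in a size-selected library they can stem from pieces of it.

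Other RNAs of the pathway moved beside the members. C/D box snoRNAs, most but not all of which guide ribose methylation, were led by SNORD33 (2034 CPM as the mean over groups), SNORD3A (487 CPM) and SNORD3C (485 CPM). Of 156 tested, 34 fell in 2D exomeres and 80 in 3D exomeres against sEV, and 117 in FPLC supermeres against FPLC exomeres, with none rising. In these comparisons 3.12, 4.87 and 48% of all features fell. In 2D supermeres 73 fell and 5 rose against sEV, beside 4.52 and 1.4% of all features. SNORD33 had a mean level of 893 CPM in 2D UC sEV and 8565 CPM in 2D UC supermeres. Among scaRNAs, which guide the modification of spliceosomal RNA in Cajal bodies, 3 of 4 entries were tested. SCARNA10 held most counts, with a mean of 28.7 CPM in 3D UC sEV and 57.1 CPM in 2D UC exomeres, where the summed scaRNAs ran from 1.47 to 165 CPM between libraries. In the means over groups SCARNA18 and SCARNA12 were at 0.884 and 0.583 CPM. The telomerase RNA TERC, itself an H/ACA RNA, had counts in 2D UC sEV only (0.216 CPM) and was not tested. Host transcripts of snoRNAs, a list not limited to hosts of the members, were led by GAS5, SNHG1 and SNHG20. Their means over groups were 98.7, 61.5 and 29.4 CPM. Of 22 tested, 4 fell in 3D UC exomeres against 3D UC sEV and 15 in FPLC supermeres against FPLC exomeres, where 4.87 and 48% of all features fell. GAS5 was at 354 CPM in 3D UC sEV and 8.76 CPM in 3D UC exomeres, and a link to the members was not tested.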

How the data were processed

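The authors deposited one table of expected counts per feature for 38 libraries. Per the submitters' processing notes, cutadapt 4.5, FastQC 0.12.1, Bowtie 1.3.1 and GRCh38.p13 were used; the counting tool and annotation are not given in the sources used here. Of the values, 6.71% are not whole (tolerance 1e-06), and counts were rounded before tests. Letters A to D are not tied to medium pools by the labels, so the p-values rest on the spread among libraries alone, and that spread may be technical. The table's name holds 2 project numbers of unknown membership, so a batch cannot be told apart from the groups.

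The members, lists, comparisons and tests were chosen with earlier results of these data known. CPM are counts scaled to a library total of 1000000. Tests used edgeR 4.0.16 in R 4.3.3 (glmQLFit, robust, and glmQLFTest) with library totals, filterByExpr with a minimum count of 10, and 11 group means over 37 libraries with at least 1000 counts (26 residual degrees of freedom, common biological coefficient of variation 1.29). Two-sided p-values were adjusted by Benjamini-Hochberg over 8979 features. A log2 difference carries the SE from its F statistic; folds against a group at 0 are bounds against 3 counts over the group's total. The fit was also run on data simulated from the measured means and its own dispersions. Alternatives were TMM, DESeq2 1.42.0 size factors, snoRNA totals, DESeq2, no filter, a replicate block, keeping the near-empty library, each library left out, and, added after seeing the data, sums without SNORA57. Coordinates and sequences come from GENCODE v29 (GRCh38). One sequence is not reported here.

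Named members are the 12 with the highest mean over groups, a fixed set by role (U17, E2, E3, U19, SNORA31, SNORA23, SNORA24, SNORA53, SNORA61, SNORA7A, SNORA7B, SNORA14A, SNORA14B and members overlapping miRNAs), the 3 largest changes per direction and comparison with at least 20 CPM and no overlap, and those at the limit. Others, such as SNORA46 and SNORA64, were named after their values were seen.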

Additional observations from a re-analysis of the deposited data

Results flagged for a closer look

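Of 70 tests for 1 library apart from the other 3 in a group of 4, 16 found one. In 11 of these the other 3 libraries were at 0, which passes this test whatever the value, so the usual rate of about 1 in 20 by chance does not apply to them and they are given as values only. FPLC supermere D had an H/ACA share of 4.267% against 2.14 to 2.27% in the others, and 3.043 CPM of SNORA75 against at most 0.460. FPLC exomere D had 533.6 CPM of SNORA71A against 60.8 to 142. Gradient 9_10 D had 414.6 CPM of SNORA75 against 17.8 to 49.3. Members with counts in a single library of that pool, some of them 1 count, were SNORA57 and SNORA14B (5.384 CPM each) and SNORA61 (37.69 CPM) in D, SNORA71A (37 CPM) in C, SNORA75B (2.039 CPM) in A, and SNORA51 (8.898 CPM) and SNORA5A (17.8 CPM) in B. In FPLC supermere B, SNORA71A (0.7301 CPM, at most 0.0772 elsewhere), SNORA14B (0.3651 CPM), SNORA8 (0.1825 CPM) and SNORA5A (0.7301 CPM) stood alone, as did SNORA61 (1.104 CPM) in C.

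The particle-to-sEV difference differed between cultures by its own test for 4 members. In exomeres the 3D minus 2D difference was -7.95 for SNORA75B (edgeR adjusted p = 0.00782) and -10.26 for SNORA14B (edgeR adjusted p = 0.000562), and in supermeres -9.37 for SNORA57 (edgeR adjusted p = 0.000357) and -9.01 for SNORA71A (edgeR adjusted p = 0.0341). The SNORA14B and SNORA71A values involve a 3D particle group at 0 CPM, so their sizes are set by the fit.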

How the results depend on the processing

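The 33 named log2 differences were picked from these same fits as large changes that passed, so a kept sign was likely in advance. None of them reversed under any alternative. Outside this list signs did change, as for SNORA21 in 3D against 2D exomeres (-1.48 by library totals, 1.43 per snoRNA total). Of the 235 values of the 33 with a library left out, 30 missed the threshold. So did 12 of the 33 per snoRNA total, 3 with TMM factors, 3 without the filter and 2 with DESeq2 size factors. Counts of members that passed moved more, and those beyond 1.5 times follow. With TMM factors they were 48 (exomeres) and 46 (supermeres) against sEV in 2D, 18 for 3D against 2D sEV, 28 for FPLC supermeres against exomeres, 35 for 6_7, 23 for 12 and 1 for the supermere difference between cultures. With DESeq2 size factors the same comparisons gave 40, 42, 17, 23, 47, 32 and 1, with 16 for FPLC against UC exomeres and 7 for 9_10. Per snoRNA total they were 24 and 49 against sEV and 4 for supermeres against exomeres in 2D, 9 and 5 against sEV in 3D, 14 for FPLC against UC exomeres, 21 for FPLC supermeres against exomeres, 2 for 6_7, 4 for 9_10 and 10 for the exomere difference. With DESeq2 they were 33 for exomeres against sEV and 3 for supermeres against exomeres in 2D, 53 for supermeres against sEV and 4 against exomeres in 3D, 20 (sEV) and 6 (supermeres) between cultures, 2 for FPLC against UC supermeres and 28 for FPLC supermeres against exomeres, 46, 7 and 29 for 6_7, 9_10 and 12, and 4 and 8 for the exomere and supermere differences between cultures. Without the filter they were 5 and 15 for exomeres and supermeres against sEV in 2D, 22 and 14 in 3D, 7 and 1 for these particles between cultures, 14 for FPLC against UC exomeres, 7, 8 and 6 for 6_7, 9_10 and 12, and 1 for the supermere difference. Keeping the near-empty library gave 5 for 3D against 2D supermeres. The cause was not tested.

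Libraries were not treated as pairs by letter, since no comparison had every same-letter correlation over 0.1 (range -0.16 to 0.42). With 2 to 4 libraries per group this cannot exclude a pairing. In 2D, letter C had the highest C/D box share of snoRNA counts in sEV, exomeres and supermeres (86.4, 86.7 and 74.1%). The shares in A and B were at most 78.9, 73.6 and 53.8%, and a batch behind this was not tested. With the replicate block the count was 7 for 3D against 2D sEV, 20 for FPLC against UC exomeres and 8 for 9_10, and the other 14 stayed within 1.5 times. With 1 library left out, counts ran from 1 to 8, 10 to 20 and 0 to 1 in 2D, 14 to 28, 2 to 21 and 0 to 1 in 3D, 0 to 3, 3 to 18 and 1 to 2 between cultures, 9 to 39, 0 to 0 and 49 to 75 for FPLC, 5 to 15, 5 to 12 and 6 to 10 for 6_7, 9_10 and 12, and 1 to 3 and 1 to 2 for the differences. Without SNORA57 the H/ACA level was 119 CPM and the share 1.36% in 2D exomeres, and 83.6 CPM and 0.479% in 2D supermeres, an alternative chosen after seeing the data; a member limit of 200 counts gave a share of 15.3% in 6_7. In 9_10 the level that 3 counts set is 6.12 to 37.0 CPM per library, so a member at 0 in a library there may still lie below it.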
